A study of Mus musculus with 8 samples.

Results

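Adipocyte marker genes are transcripts that fat cells make in large amounts and most testis cells make little of. The set held 10 genes chosen by name (Fabp4, Adipoq, Plin1, Plin4, Cfd, Car3, Lpl, Cd36, Cidec and Pparg), and all 10 were found by symbol among the 24988 genes of the table. They were read library by library as a possible measure of fat tissue carried along with the testis. Whether they measure it was not tested, and the members did not all move together across libraries. Total RNA of adult mouse testis was sequenced in 4 libraries labelled Kpna2 knockout (genotype Kpna2-/-) and 4 labelled wild type (WT), in a study of male infertility. The product of Kpna2 is an importin alpha, one of the adaptors by which proteins enter the nucleus. The labels give no strain, allele design, treatment or age in days nor whether each library came from its own animal, so p-values measure the spread between these libraries. Kpna2 itself was higher in the libraries labelled knockout, at 19.2 ± 2.76 CPM against 13.9 ± 1.11 CPM in those labelled wild type (SD, n = 4 each; limma adjusted p = 0.0079). Its log2 fold change was 0.44, a direction that a lost transcript would not give. Without the allele design, the RNA level does not tell whether its protein was lost. Directions are therefore given for the libraries by their label, not for the loss of Kpna2.

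White adipocytes store triglyceride in a large droplet. Pparg, a nuclear receptor, switches on much of the program of fat cells. Lpl frees fatty acids from circulating lipoproteins, Cd36 takes them up and Fabp4 carries them in the cytoplasm, while Plin1, Plin4 and Cidec sit on lipid droplets. Adipoq and Cfd encode the secreted proteins adiponectin and adipsin, and Car3 is a carbonic anhydrase abundant in fat and skeletal muscle. In mice a large fat pad lies against the epididymis, next to the testis. Lpl, Cd36, Fabp4 and Pparg are also made by other cells, such as macrophages, and Cd36 and Fabp4 by capillary endothelium.

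The promoters of the secreted pair are shown because Adipoq and Cfd differed in their span between libraries. The highest library held 1.66 times the lowest for Adipoq, whereas Cfd ran from 0 to 5.49 CPM. These are the 250 bases before the start of each gene in RefSeq (GRCm38.p6, plus strand), with matches to a motif in capitals. Adipoq lies at chr16:23146286-23146535 and Cfd at chr10:79890603-79890852.
Adipoq: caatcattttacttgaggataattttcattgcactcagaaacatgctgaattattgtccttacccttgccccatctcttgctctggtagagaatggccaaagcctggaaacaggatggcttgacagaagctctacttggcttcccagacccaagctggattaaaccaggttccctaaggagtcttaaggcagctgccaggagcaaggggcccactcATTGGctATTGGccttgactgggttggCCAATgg
Cfd: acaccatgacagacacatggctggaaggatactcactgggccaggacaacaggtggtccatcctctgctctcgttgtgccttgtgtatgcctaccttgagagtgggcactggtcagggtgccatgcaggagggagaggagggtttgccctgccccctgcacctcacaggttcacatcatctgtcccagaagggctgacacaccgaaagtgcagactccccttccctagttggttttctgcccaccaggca
On both strands, 5 motifs were searched: the direct repeat AGGTCANAGGTCA of PPAR and RXR receptors, its single site AGGTCA, the palindrome TTGCGCAA of C/EBP factors, TATAAA and CCAAT. The Adipoq window held CCAAT beginning 7 bases before the start and, on the other strand, 27 and 34 bases before it, with no overlap between matches. The Cfd window held none of the 5. CCAAT occurs in 33.9% of all 32851 windows of this length and the full direct repeat in 0.0335%. The repeat was in none of the 10 windows found for 7 of the members. Fabp4, Car3 and Lpl had no entry. A match or its absence describes these letters only.

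Reads counted in the listed genes, recovered from the scaled values, numbered between 31133443 and 37797812 per library. Values are CPM as the authors named them, read counts scaled per library, whose columns sum to between 990244 and 1025490 rather than all to the same total, and the members rested on 0 to 849 reads per library. Fold changes were fitted to log2(CPM + 0.5), knockout minus wild type, and for weakly expressed genes this makes them smaller than the ratio of the means. Of 22027 genes tested with limma, 16.9% passed an adjusted p of 0.05, with 8.32% of the tested genes lower and 8.62% higher. All 10 adipocyte markers passed the filter on low values (mean of 0.5 CPM or more). Of the 10, 2 fell (Adipoq and Cidec) and none rose, and edgeR and DESeq2 each called 2 as well. Their fitted log2 fold changes were below 0 for 8 and above 0 for 2, with a median of -0.46 against -0.01 over all tested genes. The values of the groups did not overlap for 1 of the 10 (Adipoq), and over all tested genes this held for 20.9%. A count of 2 called among 10 is near the share of all genes.

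**Figure D1:**
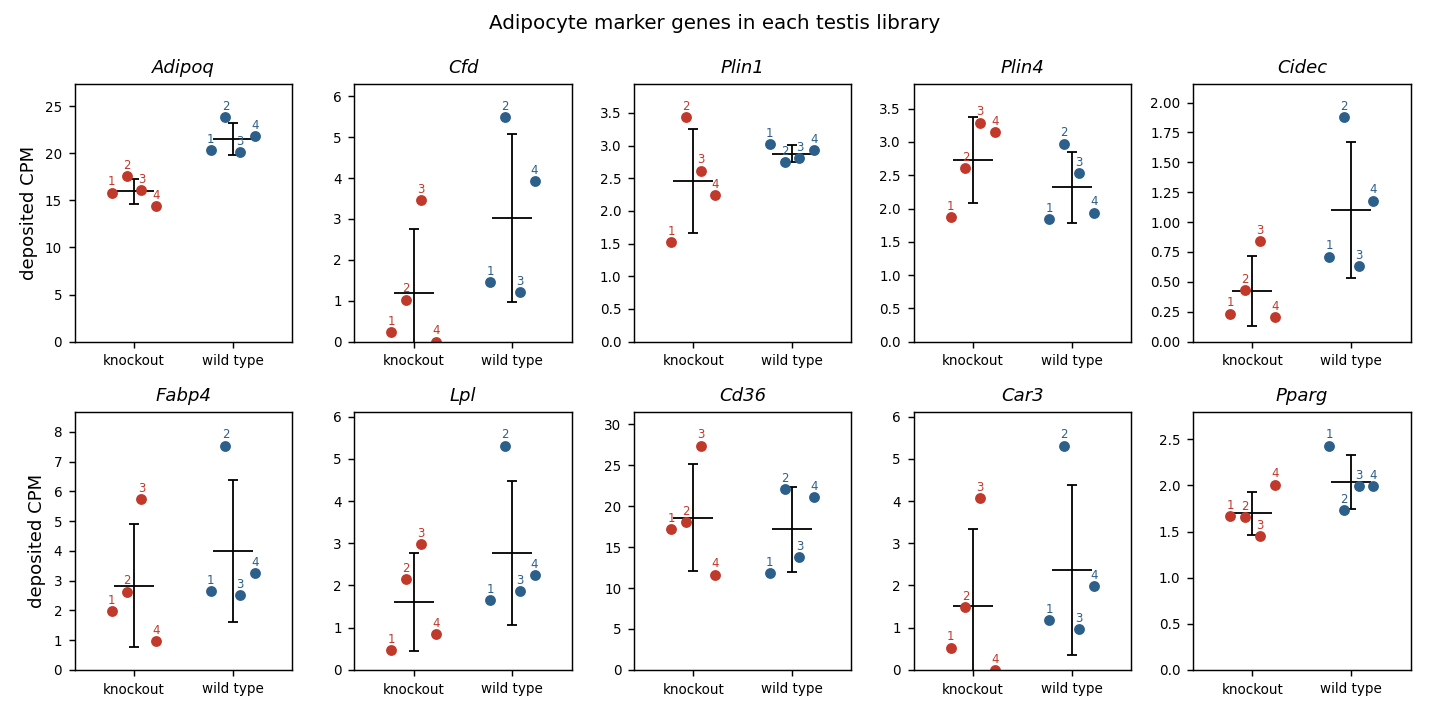
Deposited CPM of each adipocyte marker gene in the 4 libraries labelled knockout (red) and the 4 labelled wild type (blue), with replicate numbers beside the points, the mean as a line and the SD as a bar (cut at 0). Adipoq alone shows no overlap, at 14.4 to 17.6 CPM under the knockout label and 20.1 to 23.8 CPM under the wild-type label. Wild-type replicate 2 or knockout replicate 3 leads most panels, and wild-type replicate 2 leads that of Adipoq too.

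Among the secreted products, Adipoq (ENSMUSG00000022878) stood at 15.8, 17.6, 16.1 and 14.4 CPM in the libraries labelled knockout, against 20.4, 23.8, 20.1 and 21.9 CPM in those labelled wild type. All 4 libraries labelled knockout lay below all 4 labelled wild type. The mean was 16.0 ± 1.32 CPM under the knockout label and 21.5 ± 1.71 CPM under the wild-type label (SD, n = 4 each), a log2 fold change of -0.42 with an SE of 0.08 (limma adjusted p = 0.0023). Adiponectin is a hormone that raises insulin sensitivity. Its transcript had 494 to 834 reads per library, and its highest library held 1.66 times its lowest.

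Cfd (ENSMUSG00000061780), the protease adipsin of the alternative complement pathway, varied more between libraries. It stood at 0.234, 1.03, 3.45 and 0 CPM in the libraries labelled knockout, against 1.45, 5.49, 1.21 and 3.93 CPM in those labelled wild type. Knockout replicate 4 had no read, which allows up to 0.0873 CPM at a floor of 3 reads, whereas knockout replicate 3 had 107 reads and lay above wild-type replicates 1 and 3. The groups overlapped, and the log2 fold change of -1.33 with an SE of 0.54 did not pass (limma adjusted p = 0.11). Without knockout replicate 3 it was -1.89 and passed (limma adjusted p = 0.0078).

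Of the lipid droplet proteins, Cidec (ENSMUSG00000030278), which helps droplets to fuse and grow, fell by the test. Its values were 0.234, 0.429, 0.839 and 0.204 CPM in the libraries labelled knockout and 0.712, 1.88, 0.634 and 1.18 CPM in those labelled wild type. Knockout replicate 3 lay above wild-type replicates 1 and 3, so the groups overlapped. The counts behind these values were 7 to 65 reads per library. Its log2 fold change of -0.77 had an SE of 0.25 (limma adjusted p = 0.045). The call was lost without knockout replicate 1, 2 or 4, without wild-type replicate 2 or 4, and with a pseudocount of 2 CPM, and the adjusted p ranged from 0.013 to 0.14 over 15 alternatives. Plin1 (ENSMUSG00000030546), the coat protein that guards the droplet against lipases, stood at 1.52, 3.43, 2.61 and 2.24 CPM under the knockout label and at 3.03, 2.74, 2.81 and 2.93 CPM under the wild-type label. Its 4 wild-type values were close together, with an SD of 0.127 CPM, whereas those under the knockout label had an SD of 0.797 CPM and lay on both sides of them (limma adjusted p = 0.38). Plin4 (ENSMUSG00000002831), a perilipin of small droplets, stood at 1.87, 2.60, 3.29 and 3.14 CPM under the knockout label and at 1.84, 2.97, 2.54 and 1.94 CPM under the wild-type label, without passing (limma adjusted p = 0.50). In GENCODE on GRCm38, Plin4 shares 17 exon bases with Hdgfl2 on the other strand. Hdgfl2 averaged 162 CPM over the 8 libraries, and without the strand setting of the counting a part of the Plin4 reads may belong to it.

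The genes of fatty acid supply did not pass the test either. Fabp4 (ENSMUSG00000062515) stood at 1.99, 2.63, 5.75 and 0.960 CPM in the libraries labelled knockout, against 2.64, 7.54, 2.51 and 3.25 CPM in those labelled wild type (log2 fold change -0.50, SE 0.37, limma adjusted p = 0.40). Lpl (ENSMUSG00000015568) stood at 0.467, 2.15, 2.97 and 0.844 CPM under the knockout label and at 1.66, 5.31, 1.87 and 2.25 CPM under the wild-type label (log2 fold change -0.70, SE 0.37, limma adjusted p = 0.23). With each library left out in turn the log2 fold change ran between -0.87 (without knockout replicate 3) and -0.17 (without knockout replicate 4) for Fabp4. For Lpl it ran between -0.996 (without knockout replicate 3) and -0.38 (without wild-type replicate 2 or knockout replicate 1), and neither gene passed the threshold in any of these fits. In both genes wild-type replicate 2 was the highest of the 8 libraries and knockout replicate 3 the next. Cd36 (ENSMUSG00000002944) took more reads, 397 to 849 per library, at 17.2, 18.1, 27.4 and 11.6 CPM under the knockout label and 11.8, 22.1, 13.8 and 21.1 CPM under the wild-type label. All 4 values under the wild-type label lay inside the range of those under the knockout label, with a log2 fold change of 0.10 and an SE of 0.23 (limma adjusted p = 0.82). Its sign turned without knockout replicate 3 (-0.11) and without wild-type replicate 1 (-0.06).

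Car3 (ENSMUSG00000027559) followed Cfd. It stood at 0.525, 1.49, 4.07 and 0 CPM in the libraries labelled knockout, against 1.19, 5.31, 0.966 and 1.99 CPM in those labelled wild type. Knockout replicate 4 again had no read, and the log2 fold change of -0.74 with an SE of 0.55 did not pass (limma adjusted p = 0.40). It was -1.28 without knockout replicate 3, -0.22 without knockout replicate 4, -0.32 without wild-type replicate 2 and -1.31 with a pseudocount of 0.1 CPM and -0.34 with one of 2 CPM, none past the threshold. Pparg (ENSMUSG00000000440) varied little. It stood at 1.66, 1.66, 1.45 and 2.01 CPM under the knockout label and at 2.43, 1.73, 1.99 and 1.99 CPM under the wild-type label, with overlap between the groups (limma adjusted p = 0.32).

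**Figure D2:**
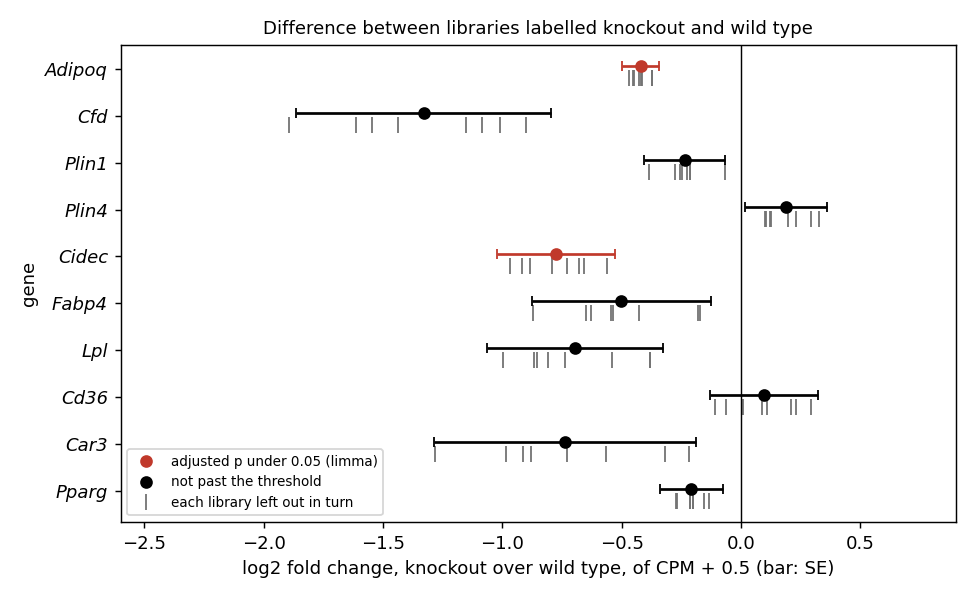
Log2 fold change of CPM + 0.5, knockout over wild type, for each adipocyte marker gene, with the SE as a bar and grey ticks for the value with each library left out in turn. Adipoq and Cidec (red) passed an adjusted p of 0.05, and the ticks of Adipoq stay between -0.47 and -0.37 whereas those of Cfd run between -1.89 and -0.90.

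Per kilobase of the longest principal transcript in GENCODE, Adipoq led the set with 12.4 ± 1.02 CPM per kilobase in the libraries labelled knockout and 16.7 ± 1.33 in those labelled wild type (SD, n = 4 each). Cd36 came next with 5.47 ± 1.92 CPM per kilobase under the knockout label and 5.05 ± 1.52 under the wild-type label. Fabp4 followed with 3.16 ± 2.30 under the knockout label and 4.45 ± 2.67 under the wild-type label, and Cfd with 1.28 ± 1.71 under the knockout label and 3.28 ± 2.23 under the wild-type label. Under both labels the gap between Adipoq and Cd36 was larger than their SDs, whereas under the wild-type label Cd36, Fabp4 and Cfd differed from their neighbour by less than the SD of either. The other 6 members stood between 0.403 (Plin4) and 1.41 (Car3) CPM per kilobase in the wild-type libraries.

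Unlike Adipoq, whose groups did not overlap, several members shared a pattern across libraries in which the groups overlapped. Fabp4, Cfd, Car3, Lpl and Cidec, grouped here after their values were seen, moved together. Their summed level was 3.44, 7.72, 17.1 and 2.01 CPM in knockout replicates 1 to 4, against 7.66, 25.5, 7.18 and 12.6 CPM in wild-type replicates 1 to 4. Wild-type replicate 2 was the highest and knockout replicate 4 the lowest, 12.7 times apart, and knockout replicate 3 lay above 3 of the 4 libraries labelled wild type. Pearson's r of log2(CPM + 0.5) over the 8 libraries was 0.87 to 0.99 for the 10 pairs among these 5 genes. Taken as deviations from the group means it was 0.86 to 0.99. The points of all pairs share the same libraries and their scaling, and these values are descriptions.

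Adipoq and Cd36 made up most of the summed level of the set, 58.2% to 79.6% of it in each library. Their sum was 33.0, 35.7, 43.5 and 26.0 CPM in knockout replicates 1 to 4, against 32.1, 45.9, 33.9 and 42.9 CPM in wild-type replicates 1 to 4, a span of 1.76 times. The span of the summed Plin1, Plin4 and Pparg was 1.52 times. The r of Adipoq with the 5 genes was 0.61 to 0.86 (0.76 with Cfd) and that of Cd36 0.55 to 0.80. For Plin1 it was 0.34 to 0.67, for Plin4 0.10 to 0.42 and for Pparg -0.42 to -0.03. Taken as deviations from the group means, the r with the 5 genes was 0.73 to 0.94 for Cd36, 0.71 to 0.77 for Adipoq, 0.38 to 0.70 for Plin4, 0.22 to 0.59 for Plin1 and -0.86 to -0.70 for Pparg. Knockout replicate 3 had the highest Cfd of its group, but its Adipoq level of 16.1 CPM lay between those of the other 3. Like Cfd, Adipoq was highest in wild-type replicate 2 and lowest in knockout replicate 4.

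**Figure D3:**
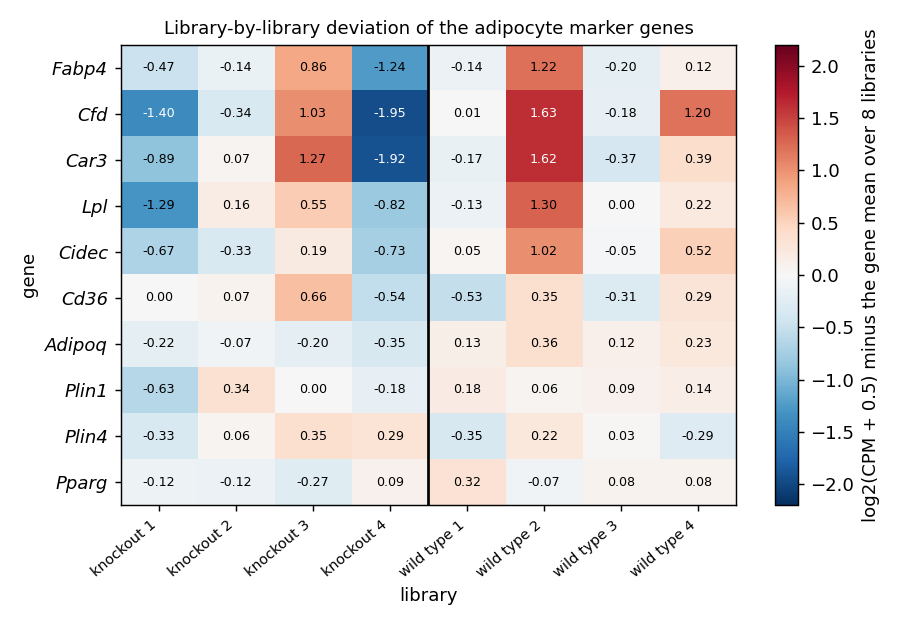
Deviation of log2(CPM + 0.5) from the mean over the 8 libraries for each adipocyte marker gene, with the libraries labelled knockout left of the line and those labelled wild type right of it. Fabp4, Cfd, Car3, Lpl and Cidec share highs in wild-type replicate 2 and low values in knockout replicate 4, though Lpl is lowest in knockout replicate 1. Adipoq, Plin1, Plin4 and Pparg stay paler, and Adipoq too is highest in wild-type replicate 2 and lowest in knockout replicate 4.

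Ratios of reads within a library were compared between genes. The ratio of Car3 to Cfd reads was 2.25, 1.44 and 1.18 in knockout replicates 1 to 3 and 0.816, 0.968, 0.800 and 0.507 in wild-type replicates 1 to 4. The ratio could not be given for knockout replicate 4, where neither gene had a read. The ratio of Adipoq to Cfd reads was 67.8, 17.1 and 4.65 in knockout replicates 1 to 3 and 14.0, 4.34, 16.7 and 5.56 in wild-type replicates 1 to 4. Over these 7 libraries the ratio to Cfd spanned 15.6 times for Adipoq, 10.3 times for Fabp4, 4.44 times for Car3 and 3.63 times for Lpl. The highest ratios of Adipoq, Fabp4 and Car3 came from knockout replicate 1, where Cfd had only 8 reads. Over all 8 libraries, the ratio to Fabp4 spanned 5.35 times for Adipoq, 4.14 for Cd36, 3.73 for Lpl and 3.08 for Cidec. No span could be given for Car3, at 0 reads in knockout replicate 4. In knockout replicate 4 Adipoq had 494 reads, Cd36 400 reads, Fabp4 33 reads and Lpl 29 reads beside the 0 reads of Cfd and Car3.

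**Figure D4:**
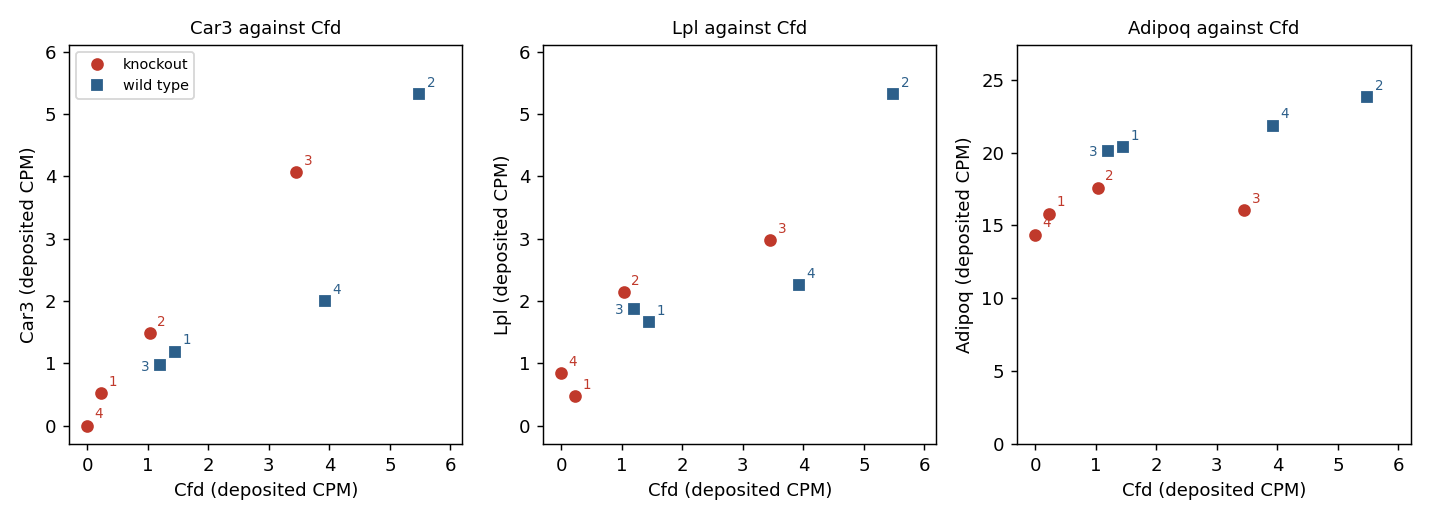
Levels of Car3, Lpl and Adipoq against that of Cfd in deposited CPM, with libraries labelled knockout as red circles and those labelled wild type as blue squares, numbered by replicate. In the library where Cfd is at 0, Car3 is at 0, Lpl at 0.844 CPM and Adipoq at 14.4 CPM, against 5.31, 5.31 and 23.8 CPM in the library with the most Cfd.

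Further genes of fat cells and lipid handling had calls in both directions. Of 16 other adipocyte genes, 14 were found by symbol (not Adrb3 and Slc7a10) and 8 passed the filter. Of these 8 tested genes, 1 rose and none fell. It was Aqp7, a glycerol channel that sperm also carry, at 212 ± 10.1 CPM under the knockout label and 165 ± 8.92 CPM under the wild-type label (limma adjusted p = 0.00032). The fat hormone genes Lep and Retn, named after their values were seen, were low. Lep stood at 0.272 ± 0.192 CPM under the knockout label and 0.315 ± 0.122 CPM under the wild-type label, under the filter, and Retn at 1.57 ± 0.353 CPM under the knockout label and 2.08 ± 0.406 CPM under the wild-type label (limma adjusted p = 0.19).

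Of 13 genes of lipid droplets and lipolysis, 1 rose and 1 fell. Plin3, a perilipin found in most cells, rose to 45.2 ± 2.79 CPM under the knockout label, against 34.5 ± 5.24 CPM under the wild-type label (limma adjusted p = 0.0080). Plin2, the perilipin of droplets in cells other than adipocytes, fell to 41.1 ± 3.46 CPM under the knockout label, against 49.8 ± 4.24 CPM under the wild-type label (limma adjusted p = 0.021). Of 15 adipogenic transcription factors and cofactors, 1 rose and 1 fell. Zfp423, a factor of the commitment to the fat lineage, fell to 20.2 ± 1.66 CPM under the knockout label, against 27.1 ± 1.23 CPM under the wild-type label (limma adjusted p = 0.0011). Cebpb, which acts early in adipogenesis, rose to 2.04 ± 0.901 CPM under the knockout label, against 1.12 ± 0.185 CPM under the wild-type label (limma adjusted p = 0.048).

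Of 15 genes of fatty acid and triglyceride synthesis, 2 rose and 5 fell. Lpin1, a phosphatidate phosphatase, rose to 728 ± 29.2 CPM under the knockout label, against 638 ± 10.8 CPM under the wild-type label. Gpd1, which makes glycerol 3-phosphate, fell to 23.9 ± 2.05 CPM under the knockout label, against 29.6 ± 1.90 CPM under the wild-type label, and Me1, the cytosolic malic enzyme, to 147 ± 7.59 CPM under the knockout label, against 168 ± 4.98 CPM under the wild-type label. Of 11 tested genes of fatty acid uptake and binding, 4 rose and none fell. Among them Apoc1, an apolipoprotein, rose to 25.5 ± 7.38 CPM under the knockout label, against 12.5 ± 1.51 CPM under the wild-type label (limma adjusted p = 0.00049). The binding proteins Fabp3 and Fabp5 rose to 30.8 ± 4.47 and 3.54 ± 0.364 CPM under the knockout label, against 21.0 ± 3.74 and 2.43 ± 0.480 CPM under the wild-type label. Together 16 of the 62 tested genes of these 5 lists were called, 9 higher and 7 lower. Over all tested genes 16.9% were called, 8.62% higher and 8.32% lower. The count over the 5 lists dropped to 9 calls without wild-type replicate 1 and 10 without wild-type replicate 2.

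Markers of other cells that share these genes or lie around the testis were read beside them. In bulk RNA, fewer cells of a type and less RNA per cell cannot be told apart. Beside the counts for each cell type, 8.32% of all tested genes were called lower and 8.62% higher. Of 11 endothelial markers 3 fell and none rose. Aqp1 fell to 0.966 ± 0.328 CPM under the knockout label, against 2.12 ± 0.250 CPM under the wild-type label (limma adjusted p = 0.0033). Tek fell to 2.69 ± 0.414 CPM under the knockout label, against 4.34 ± 0.912 CPM under the wild-type label (limma adjusted p = 0.012). Vwf fell to 14.0 ± 1.56 CPM under the knockout label, against 18.1 ± 0.350 CPM under the wild-type label (limma adjusted p = 0.0073). Pecam1 stood at 2.10 ± 0.190 CPM under the knockout label and 1.95 ± 0.409 CPM under the wild-type label. For Cdh5 the values were 3.97 ± 1.07 and 4.505 ± 0.613 CPM, and neither gene passed. The sum over the list was 38.8 to 49.8 CPM under the knockout label and 47.7 to 53.8 CPM under the wild-type label. Of 11 macrophage markers 1 fell, with sums of 111 to 160 CPM under the knockout label and 126 to 139 CPM under the wild-type label. Adgre1 and Csf1r stood at 3.62 ± 0.160 and 8.86 ± 1.46 CPM under the knockout label and at 3.30 ± 0.267 and 9.05 ± 0.573 CPM under the wild-type label. None of the markers of these lists was at 0 in any library.

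Among markers of connective tissue, more fell than rose. Of 11 fibroblast and fat progenitor markers 8 fell and 1 rose, with sums of 94.4 to 139 CPM under the knockout label and 191 to 223 CPM under the wild-type label. Pdgfra stood at 11.6 ± 2.90 CPM under the knockout label and 14.2 ± 1.86 CPM under the wild-type label without passing, and Col1a1 fell to 5.94 ± 1.97 CPM under the knockout label, against 15.6 ± 3.06 CPM under the wild-type label. Mfap5 rose to 10.2 ± 0.361 CPM under the knockout label, against 4.01 ± 1.33 CPM under the wild-type label (limma adjusted p = 5.6e-05). Of 8 smooth muscle and myoid markers 4 fell, with sums of 356 to 375 CPM under the knockout label and 407 to 484 CPM under the wild-type label. Of 8 mesothelium markers 3 fell and 1 rose (Muc16, limma adjusted p = 0.028). Among these, Upk3b stood at 1.81, 2.95, 1.94 and 0.291 CPM in knockout replicates 1 to 4 and at 7.06, 2.08, 6.91 and 3.90 CPM in wild-type replicates 1 to 4, so that wild-type replicate 2, the highest for adipocyte markers, was the lowest of its group for this mesothelial gene. Of 9 Leydig cell markers 4 fell and 1 rose, with sums of 877 to 1285 CPM under the knockout label and 1244 to 1479 CPM under the wild-type label. Of 11 Sertoli cell markers 2 fell, with sums of 962 to 1116 CPM under the knockout label and 1094 to 1189 CPM under the wild-type label. Of 5 blood cell markers 1 fell and of 5 brown adipocyte markers 1 fell. Ucp1 of the brown adipocyte list was not found by symbol among the listed genes.

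Of 4 tested skeletal muscle markers limma, edgeR and DESeq2 called none, 0 reached an unadjusted p of 0.05, and the sum over 5 such genes was 13.2 to 17.2 CPM under the knockout label and 15.9 to 19.0 CPM under the wild-type label. Acta1, Tnnt3, Tnnc2 and Pvalb of the muscle list were not found by symbol among the listed genes. Of the 12 epididymis epithelium markers only 2 were found, of which 1 rose and none fell. Crisp1, Lcn5, Lcn8, Lcn9, Adam7, Adam28, Rnase9, Spint4, Defb20 and Cst11 were not found, so the list rests on 2 genes. Rnase10, a ribonuclease-like gene of the epididymis, stood at 4.52 to 6.02 CPM under the knockout label, against 1.75 to 2.15 CPM under the wild-type label, a log2 fold change of 1.21 (limma adjusted p = 8.6e-06), while Wfdc10 stood at 20.4 ± 1.99 CPM under the knockout label and 21.5 ± 1.89 CPM under the wild-type label without passing. The list had sums of 23.8 to 28.5 CPM under the knockout label and 22.1 to 26.5 CPM under the wild-type label. The part of these cell types in the levels of the adipocyte markers was not tested.

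The genes whose pattern over the 8 libraries was most like the mean pattern of the 10 adipocyte markers were named by a rule, among 242 genes whose mean reached 1 CPM and whose highest library held at least 3 times the lowest, on CPM + 0.5. They were Ecm1, Rcn3, Itih2, Mrap, Star, Ank1, Myl12b and Tbx19, with Pearson's r between 0.80 and 0.93. Myl12b belongs to a family with close copies, and its value is uncertain. Ecm1, an extracellular matrix protein gene, was the most alike, at 6.86, 8.90, 12.2 and 6.05 CPM in the libraries labelled knockout, against 12.2, 20.8, 12.1 and 18.2 CPM in those labelled wild type. Its highest library was wild-type replicate 2, as in the mean pattern of the markers, and its lowest knockout replicate 4, whereas the mean pattern was lowest in knockout replicate 1. Mrap, a melanocortin receptor accessory protein gene of adrenal and fat cells, stood at 3.27, 5.55, 5.36 and 2.74 CPM under the knockout label and at 5.40, 7.48, 5.49 and 9.54 CPM under the wild-type label. Star, which brings cholesterol into mitochondria in Leydig cells, stood at 29.1, 65.2, 65.9 and 29.5 CPM under the knockout label and at 107, 118, 86.1 and 153 CPM under the wild-type label. The 10 members themselves had an r with their own mean pattern between -0.14 (Pparg) and 0.98 (Lpl).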

How the data were processed

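RNA of adult mouse testis was read in 8 libraries, 4 labelled Kpna2 knockout and 4 wild type. Per the submitters' processing notes, Trimmomatic, Subread and featureCounts and the build GRCm39 were used. For the versions, the annotation and the strand setting the sources used here give nothing. The authors deposited a per-library scaled signal, named CPM in the file. Its columns, named kpn and control with numbers, were matched to the titles by number, taking control to mean wild type. Divided by the smallest nonzero value of its column, every value (100%) came out whole within 0.01, which recovered reads, 31133443 to 37797812 per library.

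Symbols were found for 24890 identifiers. The lowest total of any listed gene was 30 reads over the 8 libraries, and why some genes were not found was not tested. The test was limma 3.58.1 in R 4.3.3 with a variance trend on log2(CPM + 0.5), with 22027 genes kept whose mean reached 0.5 CPM and Benjamini-Hochberg adjustment over all of them. The values were planned for as plain CPM, and the planned log-scale test was used. On the recovered reads edgeR 4.0.16 (quasi-likelihood) called 3694 genes and DESeq2 1.42.0 called 3977, both after the same filter. The tests were run on simulated data before use. The 16 alternatives were another scaling, 2 pseudocounts, 2 filters, the replicate block, each library left out, edgeR and DESeq2. The members and gene lists were chosen with earlier results of these data known. The planned rule named all members and up to 3 called genes of smallest p per list, with the first of the other direction. It also named the first 2 markers of a cell type and the 8 genes most like the members. For most other cell types only counts, sums or some of these genes are given. Lep and Retn were named outside the rule. Positions and lengths come from GENCODE M21 on GRCm38, another build than the authors used. A floor of 3 reads covers counting error only.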

Additional observations from a re-analysis of the deposited data

Results flagged for a closer look

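Among the 20 sets of 4 values (10 adipocyte markers in each group), 2 had a library far from the other 3, both wild-type replicate 2. Chance alone flags about 1 in 20 such sets. The sets share libraries and Fabp4 and Lpl moved together (Pearson's r 0.87), so their 2 flags are not independent. Fabp4 stood at 7.54 CPM there, against 2.51 to 3.25 CPM in the other 3 libraries labelled wild type. Lpl stood at 5.31 CPM in the same library, against 1.66 to 2.25 CPM in the other 3.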

How the results depend on the processing

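Under all 16 alternatives Adipoq stayed lower and past the threshold (log2 fold change -0.47 to -0.37, limma, edgeR or DESeq2 adjusted p 2.7e-05 to 0.011), and the count of genes called stayed within 1.5 times of 3731 (2788 to 4073). Of the adipocyte markers 2 were called in the report and 1 with a pseudocount of 2 CPM and with a filter at a mean of 2 CPM, which leaves Cidec, Car3 and Pparg untested. With each library left out in turn the count was 1 to 3, from fewer libraries. Among the 62 tested genes of the 5 lipid lists 16 were called, and 9 to 14 with each library left out, the lowest counts being 9 without wild-type replicate 1 and 10 without wild-type replicate 2. Kpna2 stayed higher and past the threshold in each (log2 fold change 0.38 to 0.55). Cd36 turned its sign without knockout replicate 3 (-0.11) and without wild-type replicate 1 (-0.06), within a range of -0.11 to 0.29 over the left-out libraries and never past the threshold, and the cause was not tested. The replicate numbers did not pair the libraries: the correlation of same-numbered deviations from the group means was -0.03 to 0.04. With the replicate block 3446 genes and the same number of adipocyte markers, 2, were called. Levels under 1 CPM rest on fewer than 40 reads per library, so that fold changes of Cidec, Cfd and Car3 are imprecise.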
